A study of Macaca fascicularis with 25 samples.

Results

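The 37 lowest-numbered gene identifiers of the cynomolgus macaque (Macaca fascicularis) count table, ENSMFAG00000000001 to ENSMFAG00000000037, were examined as a block, because their numbers raise the question of whether they are the 37 genes of the mitochondrial genome. All 37 were present among the 28592 identifiers of the table and are called identifiers 1 to 37 here. The libraries were bulk RNA-seq of monkey embryos, each made by the Smart-seq2 low-input method from a population of about 20 cells cut from a frozen section with a laser. At Day 18 there were 3 hypoblast, 3 epiblast and 6 exmc libraries and 4 labelled others. At Day 20 there were 2 sets of 4 libraries, E20_1 and E20_2, and at Day 16 a single library, E16. The labels give no lineage for the Day 16 and Day 20 libraries, no treatment, strain or genotype for any group, and no embryo of origin. Total counts ran from 2909114 to 10462278 per library, and no identifier could be paired with a gene symbol, so no group was checked against markers of its lineage.

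The mitochondrial genome of vertebrates encodes 13 proteins of the respiratory chain, 2 ribosomal RNAs that build the mitochondrial ribosome, and 22 transfer RNAs that supply its amino acids. Both strands are transcribed as long precursors, and most of the messenger and ribosomal RNAs are freed where the transfer RNAs between them are excised. Ribosomal and messenger RNAs of mitochondria carry short poly(A) tails, while transfer RNAs are short and lack such tails, so methods primed on poly(A) capture the 2 kinds very differently. In early embryos, mitochondrial transcripts are among the most abundant RNAs.

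The block as numbered did not behave as 37 mitochondrial genes, although its first 24 identifiers sat in a stretch of the table that has the layout of a mitochondrial genome. In the order of the table's rows, identifiers 1 to 24 stood in ascending order within 37 consecutive rows, from row 27930 to row 27966. Between them stood 13 other identifiers, numbered consecutively from ENSMFAG00000046415 to ENSMFAG00000046427. The places of the lowest-numbered and the other identifiers matched the places of the RNA genes (24) and the protein genes (13) in the vertebrate order at 37 of 37 positions. Identifiers 25 to 37 lay outside this stretch, 4 to 17794 rows away. The table pairs none of these identifiers with a gene. The places are therefore described by class, and those of ribosomal RNA also as small or large. No identifier is named as a gene.

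**Figure D1:**
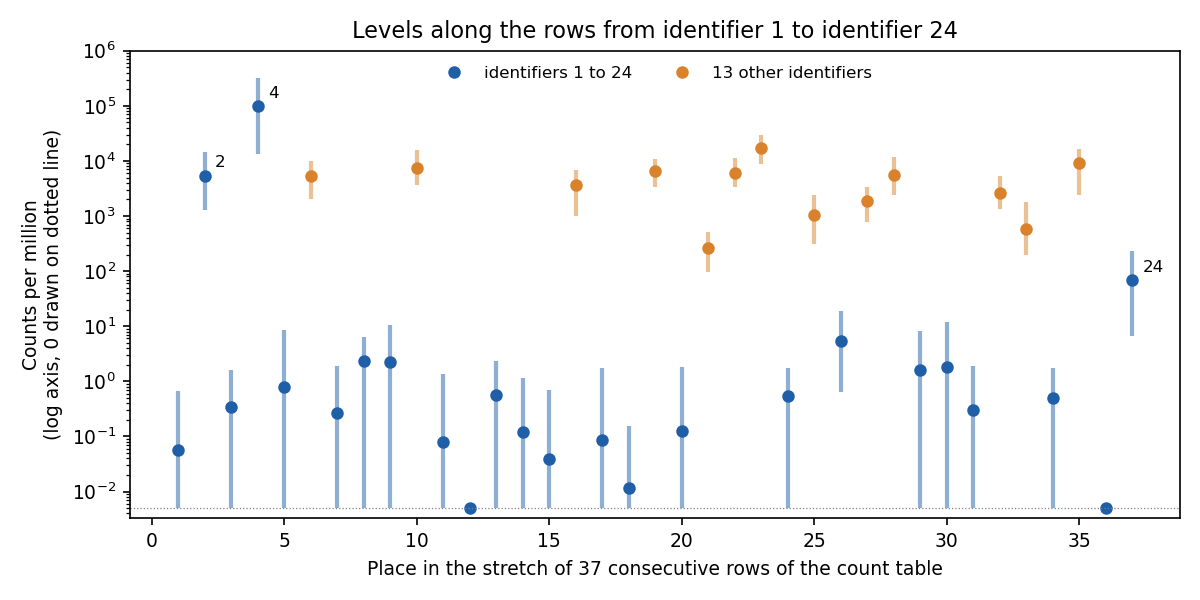
Counts per 1000000 counts of a library (CPM, log axis) at each of the 37 consecutive rows from identifier 1 to identifier 24; points are means over 25 libraries and bars run from the lowest to the highest library. The 13 other identifiers average 268 CPM or more, and among the blue points 2 and 4 reach that height while 24 averages 69.5.

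Counts were set against that order in 2 ways. When the numbers 1 to 37 were read as positions, 2 of the 15 positions of long genes (ribosomal RNA or protein) exceeded the highest transfer RNA position, which was number 24 with a mean of 69.5 counts per 1000000 counts of the library (CPM). These were identifiers 2 and 4. Between 2 and 4 long positions did so in single libraries, with a median of 2. When positions were taken from the stretch of rows, 15 of 15 long places exceeded the highest transfer RNA place, the lowest of them with a mean of 268 CPM, and the same held in 25 of 25 libraries. Read counts are not divided by gene length here, and gene lengths were not at hand, so these comparisons between identifiers concern captured reads rather than molecules.

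Identifier 4, at the place of the large ribosomal RNA in that order, took most of the block's counts. It held 15239012 of the 16110365 counts on the 37 identifiers over all libraries, and identifier 2, at the place of the small ribosomal RNA, held 828199. The other 35 identifiers held 43154 counts together. Identifier 4 averaged 99134 CPM and ranked first of all identifiers in 24 of 25 libraries. The exception was E20_1 library 1, where ENSMFAG00000046421, one of the 13 interleaved identifiers, had 116588 counts and identifier 4 had 111267. Identifier 2 averaged 5419 CPM, rank 8 of the whole table, and its rank in single libraries ran from 3 to 88. The most abundant identifier outside both the block and the stretch of rows, ENSMFAG00000001880, averaged 4841 CPM.

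**Figure D2:**
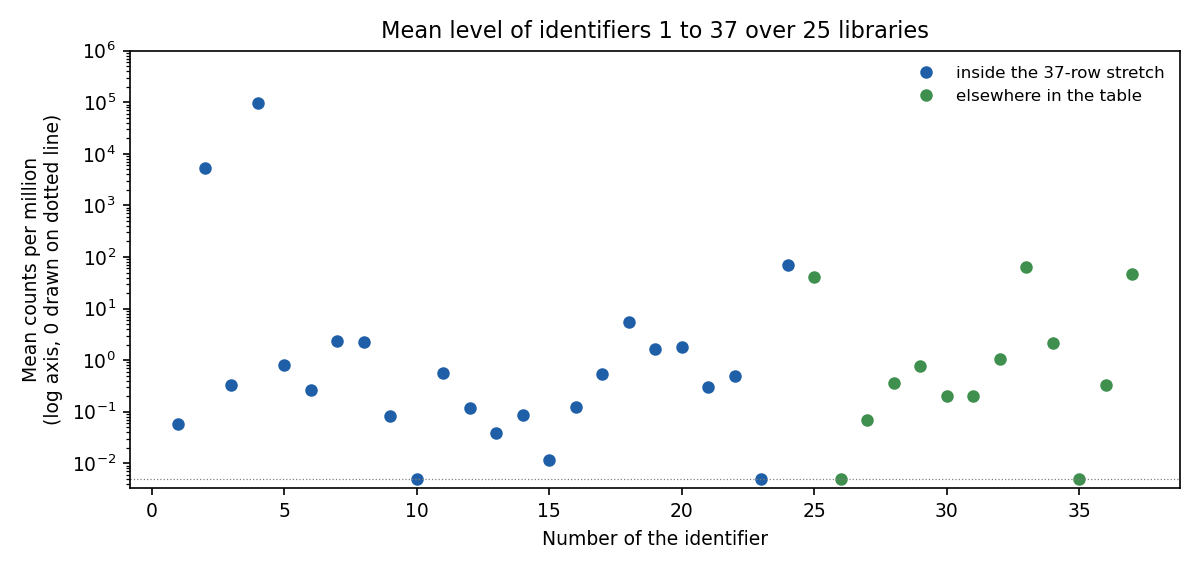
Mean CPM over 25 libraries (log axis) of identifiers 1 to 37 by number, coloured by whether the row lies inside the 37-row stretch. Identifiers 4 and 2 stand at 99134 and 5419, the rest at 69.5 or below, and 4 identifiers have no count.

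Most of the block was barely detected. A count was present in all 25 libraries for 6 identifiers (2, 4, 18, 24, 25 and 37) and in no library for 4 (10, 23, 26 and 35), for which 3 counts over all libraries would be 0.0177 CPM. Another 13 had a count in 2 to 10 libraries and 14 in 13 to 24. The median identifier of the block averaged 0.353 CPM, against 1.57 CPM for all identifiers and 19.1 CPM for the next 37 numbers, 38 to 74. The block held on average 10.5% of a library's counts (1.48% to 33.7%), while numbers 38 to 74 held 0.147% (0.109% to 0.203%), none of them averaging above 308 CPM. The 13 identifiers interleaved with the block held another 6.75% (3.70% to 11.3%).

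Among the 22 identifiers at transfer RNA places of the stretch, levels were low except for identifier 24 at the last place. Identifier 18 followed with a mean of 5.47 CPM, then 7 with 2.38 CPM, 8 with 2.23 CPM, 20 with 1.79 CPM and 19 with 1.61 CPM. The remaining 16 averaged 0.805 CPM (identifier 5) or less. Identifiers 6, 16, 21 and 22, which would be protein genes if the numbers were positions, averaged 0.261, 0.125, 0.302 and 0.503 CPM. On that reading 19 would be a protein gene too, as would 10 and 23, which had no count at all.

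The 13 identifiers outside the stretch, 25 to 37, held 0.0156% of counts on average (0.0044% to 0.0392%). Of these, 33 averaged 64.2 CPM, 37 averaged 46.4 CPM and 25 averaged 40.1 CPM. Identifier 34 averaged 2.12 CPM, 32 averaged 1.07 CPM and the other 8 averaged 0.775 CPM (identifier 29) or less. Among the latter, 27 averaged 0.0696 CPM and 28 averaged 0.353 CPM. Counts of identifier 33, not scaled to depth, were uneven among the exmc captures, and those of 25 among the E20_2 and the epiblast captures. Identifier 33 had 27, 563, 229, 0, 85 and 368 counts in the 6 exmc libraries and 676, 731, 1194 and 544 in the E20_2 libraries. Identifier 25 had 362, 119, 1483 and 36 counts in the E20_2 libraries and 17, 194 and 371 in the epiblast libraries. Identifier 37, given here in CPM, stood between 15.1 and 106 CPM at Day 18 and between 21.4 and 72.3 CPM at Day 20.

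The share of counts on identifier 4 varied widely between captures of one group outside hypoblast. It was 6.28%, 6.22% and 6.26% in hypoblast, 10.7%, 6.99% and 8.47% in epiblast, and 6.04%, 5.05%, 10.5% and 12.4% in others. In exmc the lowest library held 10.7%, the median was 12.3% and the highest, library 3, held 32.2%. At Day 20 the share was 1.34%, 8.36%, 9.96% and 5.20% in E20_1 and 7.54%, 16.2%, 11.7% and 5.99% in E20_2, and it was 10.1% in the Day 16 library. The hypoblast libraries had the smallest SD of the 6 groups with several libraries, and the ranges of hypoblast and exmc did not overlap. The widest 95% Wilson interval of these shares spanned 0.103 percentage points. That interval, of exmc library 3, is small beside the SD between captures in every group except hypoblast, where the SD was 0.0335 points. The hypoblast intervals were narrower: 6.264% to 6.299% in library 1, 6.201% to 6.231% in library 2 and 6.244% to 6.274% in library 3. The interval of hypoblast library 2 lay below the others, so these libraries also differed by more than counting error. In bulk captures, fewer cells of a type and less RNA per cell cannot be told apart.

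**Figure D3:**
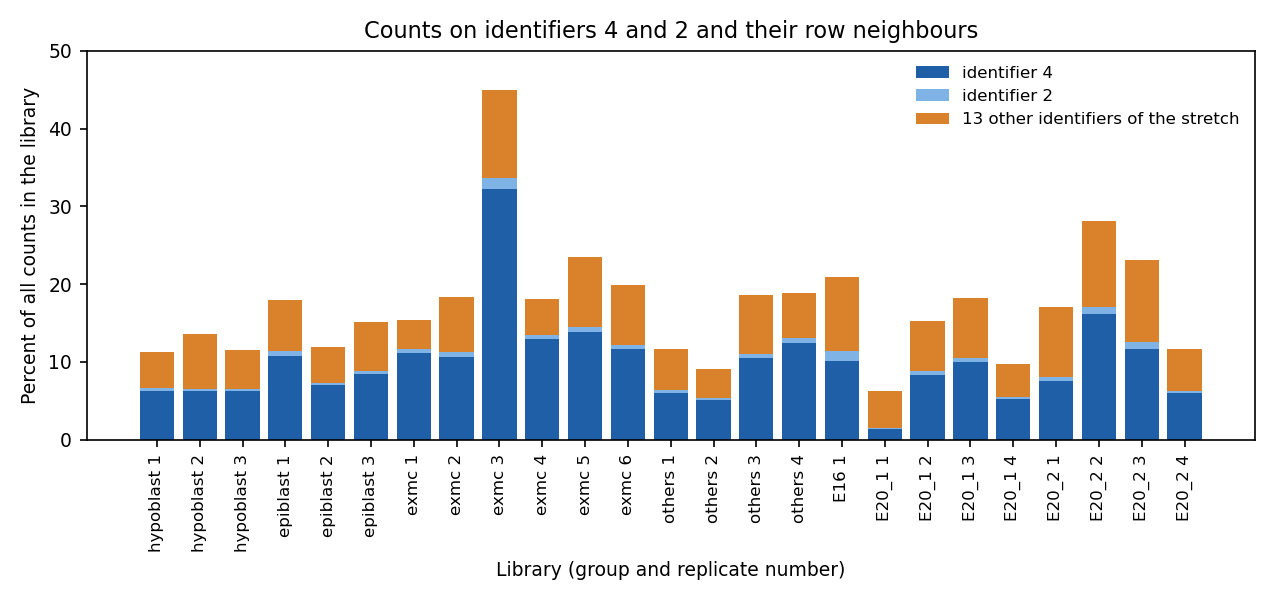
Percent of a library's counts on identifier 4, identifier 2 and the 13 other identifiers of the 37-row stretch, stacked, for each of the 25 libraries. Identifier 4 spans 1.34% in E20_1 library 1 to 32.2% in exmc library 3.

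Identifier 2 varied alongside at a much lower level. It held 0.335%, 0.257% and 0.297% of counts in hypoblast and 0.695%, 0.316% and 0.390% in epiblast. In exmc it held between 0.414% and 1.45%, with a median of 0.602%. It held 0.342%, 0.258%, 0.511% and 0.652% in others, 0.126%, 0.427%, 0.526% and 0.337% in E20_1, and 0.542%, 0.875%, 0.812% and 0.262% in E20_2. The Day 16 library held 1.35%, so that identifier 4 had 7.50 counts per count on identifier 2 there. In the other 24 libraries that ratio ran from 10.6 to 28.3.

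By group, the block as a whole held 6.57% ± 0.0730 of counts in hypoblast (SD, n = 3), 9.21% ± 2.06 in epiblast (n = 3), 16.1% ± 8.68 in exmc (n = 6) and 8.96% ± 3.69 in others (n = 4). It held 6.60% ± 3.98 in E20_1 (n = 4), 11.02% ± 4.84 in E20_2 (n = 4) and 11.5% in the single Day 16 library. The whole 37-row stretch, with the interleaved identifiers in place of 25 to 37, held 12.1% ± 1.30 in hypoblast, 15.01% ± 2.97 in epiblast, 23.4% ± 10.9 in exmc and 14.6% ± 4.93 in others. It held 12.4% ± 5.43 in E20_1, 20.0% ± 7.17 in E20_2 and 20.9% at Day 16. Identifier 4 alone made up between 21.6% and 71.9% of the stretch. Its share of the stretch was 71.9%, 71.6% and 71.4% in exmc libraries 1, 3 and 4, and 58.3% to 59.2% in exmc libraries 2, 5 and 6.

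The Day 18 comparisons address how the embryonic and extra-embryonic lineages differ. None of the 14 block identifiers with enough counts to be tested passed an adjusted p of 0.05 (edgeR quasi-likelihood test, two-sided, Benjamini-Hochberg over all 15830 identifiers) in any of the 4 comparisons, where 0% of all identifiers were called. An unadjusted p under 0.05 was found for 1 of the 14 in epiblast against hypoblast (identifier 32), against 2.14% of all identifiers, and for 1 in epiblast against exmc (identifier 4), against 5.72%. It was found for 2 in hypoblast against exmc (identifiers 2 and 4), against 7.2% of all identifiers, and for 0 in others against the mean of the 3 named lineages, against 2.92%. With 14 identifiers tested, these counts are too small to set the block apart from the table. DESeq2 and limma voom called 0 block identifiers in these comparisons too, but they called few identifiers of the whole table. In the order above, DESeq2 called 34 of 22723, 93 of 15990, 125 of 15189 and 20 of 15990. For limma voom the numbers were 0, 0, 61 and 1 of 15830. At such shares, 0 in the block does not set it apart from the table. The low unadjusted p of identifier 32 rests on few reads, since it had 36, 0 and 1 counts in hypoblast and 0 in each epiblast library.

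Identifiers 4 and 2, the ribosomal RNA places, had lower levels in every hypoblast library than in any exmc library, without passing the adjusted test. Identifier 4 had a log2 fold change of -1.54 ± 0.45 (SE) for hypoblast against exmc, with an edgeR adjusted p of 0.614, and identifier 2 one of -1.49 ± 0.47 (edgeR adjusted p = 0.622). Over 24 alternative settings, the value for identifier 4 lay between -1.68 and -1.14 with adjusted p between 0.0851 and 1.00. Ranges that did not overlap were found for 3.9% of all identifiers tested in this comparison, and for 2 of the 14 in the block. All 13 interleaved identifiers also had lower estimates in hypoblast, with a median log2 fold change of -0.63 and 0 called, while the median over all identifiers was -0.16. The hypoblast libraries were deeper (7386086 to 10462278 counts) than the exmc libraries (2909114 to 6757471), and the part of depth in this difference was not tested.

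For epiblast against exmc, identifier 4 had a log2 fold change of -1.16 ± 0.45 (SE), with an edgeR adjusted p of 0.849, and identifier 2 one of -0.93 ± 0.46 (edgeR adjusted p = 0.849). The libraries of both groups overlapped for every block identifier tested, whereas 2.92% of all identifiers did not overlap. Over 24 alternative settings, identifier 4 lay between -1.29 and -0.73 and identifier 2 between -1.27 and -0.50, with 0 calls. The 13 interleaved identifiers again all had lower estimates in epiblast, with a median of -0.64 against -0.18 for all identifiers. With scaling by total counts, the median over all identifiers was 0.07 and identifier 4 stood at -0.82. The comparisons against exmc share its libraries. For epiblast against hypoblast, identifier 4 was higher in each epiblast library than in any hypoblast library. Its log2 fold change was 0.38 ± 0.49 (SE), with an edgeR adjusted p of 1. It was the only 1 of 14 block identifiers whose ranges did not overlap, against 8.61% of all identifiers. In others against the 3 named lineages, no block identifier stood apart (0.0632% of all identifiers did), and identifier 4 had a log2 fold change of -0.25 ± 0.35 (SE), with an edgeR adjusted p of 1.00.

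Between the Day 20 sets, 0 of 11 block identifiers tested were called, as were 0% of 13461 identifiers, and 0 of the 11 had an unadjusted p under 0.05, against 6.23% of all identifiers. DESeq2 and limma voom also called 0 in the block, where DESeq2 called 13 of all 14746 identifiers and limma voom 0 of 13461. Identifier 4 had a log2 fold change of -0.68 ± 0.62 (SE) for E20_1 against E20_2, with an edgeR adjusted p of 0.885, and identifier 2 one of -0.76 ± 0.54 (edgeR adjusted p = 0.840). Ranges overlapped for all 11, while they did not for 4.58% of all identifiers. The 13 interleaved identifiers all had lower estimates in E20_1, with a median of -0.67 and 0 called.

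Day 20 against Day 18 gave the one call in the block, identifier 24. It had 612, 1192, 1279 and 581 counts in the E20_1 libraries and 785, 1835, 1689 and 1304 in the E20_2 libraries. In the 16 Day 18 libraries it had between 37 and 287 counts. In CPM, it stood at 73.6, 131, 151 and 75.3 in E20_1 and at 151, 233, 198 and 165 in E20_2. At Day 18 the lowest library was at 6.78 CPM, the median at 29.2 CPM and the highest at 53.9 CPM. Every Day 20 library was above every Day 18 library. Ranges that did not overlap, in either direction, were found for 1 of the 16 identifiers tested in the block and for 0.0942% of all 16991 tested. The group means were 147 ± 54.9 CPM at Day 20 (SD, n = 8) and 29.8 ± 14.3 CPM at Day 18 (SD, n = 16).

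The fitted log2 fold change of identifier 24 was 2.44 ± 0.32 (SE), with an edgeR adjusted p of 0.000392, a 5.44-fold higher level at Day 20. In this comparison 0.112% of all identifiers were called, 19 in number. DESeq2 gave 2.40 with an adjusted p of 1.91e-09, and limma voom gave 2.70 with an adjusted p of 5.98e-07. Leaving out each of the 24 libraries in turn gave 2.33 to 2.74 and kept the call 24 times (edgeR adjusted p = 2.78e-05 to 0.00234). Without the E20_2 group the estimate was 2.07 and the call was lost (edgeR adjusted p = 0.083), while the call was kept without each of the other 5 groups. The day, the embryo and any processing that went with it cannot be told apart, and the lineage of the Day 20 captures is not labelled.

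**Figure D4:**
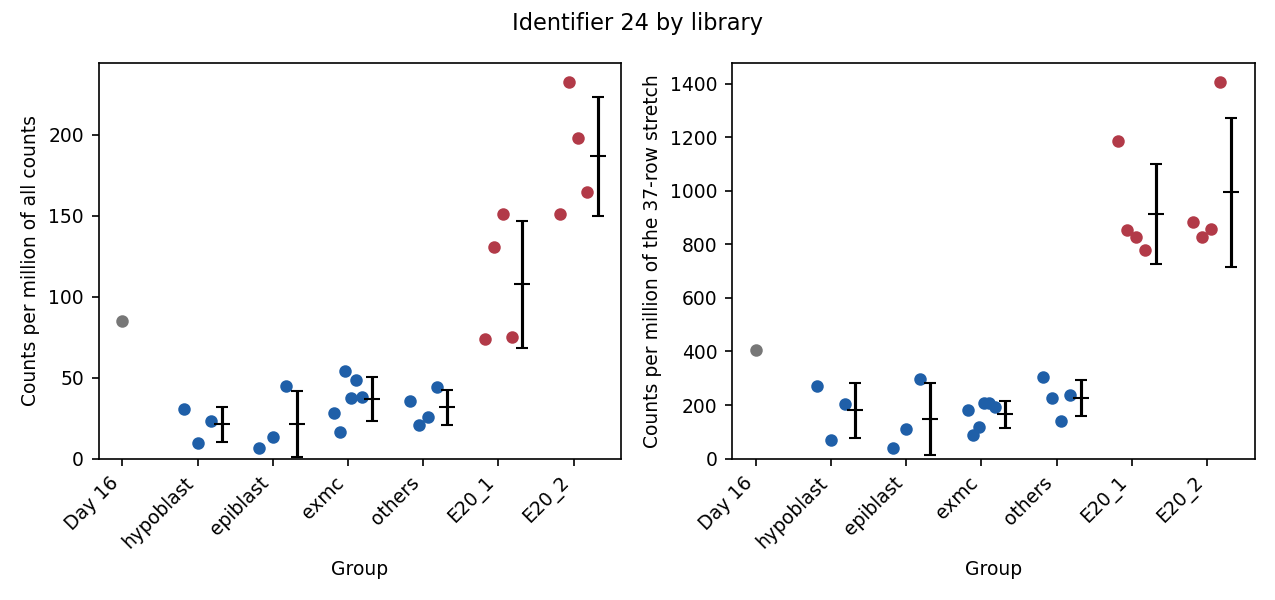
Identifier 24 in each library by group, in CPM (left) and per 1000000 counts of the 37-row stretch (right); black marks are group means with SD. The 8 Day 20 libraries lie between 73.6 and 233 on the left and between 778 and 1407 on the right, above all Day 18 libraries in both.

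The difference held when identifier 24 was set against the rest of its stretch of rows. Per 1000000 counts on the 37 rows, it stood at 953 ± 223 at Day 20 (778 to 1407) and at 180 ± 79.8 at Day 18 (37.9 to 304). With library size set to those counts, the log2 fold change was 2.42 (edgeR adjusted p = 0.000472). The other 21 transfer RNA places summed to 17.5 ± 8.18 CPM at Day 20 and 16.5 ± 10.7 CPM at Day 18, with overlapping ranges (5.57 to 25.5 and 1.27 to 42.9). Identifiers 4 and 2 had log2 fold changes of -0.14 (SE 0.32) and 0.10 (SE 0.30) and were not called. Of the 13 interleaved identifiers, 11 had higher and 2 lower estimates, with a median of 0.27 and a lowest edgeR adjusted p of 0.0965. The single Day 16 library had 369 counts on identifier 24, or 84.9 CPM and 405 per 1000000 counts of the stretch, above every Day 18 library on both scales and within the Day 20 range on the first only.

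Identifier 11, another transfer RNA place, had the largest estimate of the block between the days but few reads. It had 15, 20, 20 and 1 counts in E20_1 and 6, 17, 14 and 5 in E20_2. At Day 18 it had 5 counts in epiblast library 3, 1 count in each of 4 libraries and 0 in the remaining 11. The ranges overlapped, and the means were 1.51 ± 0.804 CPM at Day 20 and 0.0837 ± 0.206 CPM at Day 18. Its log2 fold change was 4.33 ± 0.93 (SE), with an edgeR adjusted p of 0.0864, and it was called by DESeq2 (adjusted p = 0.00558) and by limma voom (adjusted p = 0.00079). Those tools called 352 of 16931 and 377 of 16991 identifiers here, while edgeR called 19. Of 36 alternative settings, 2 called identifier 11. It passed the filter on low counts, used for edgeR and limma voom, only through its Day 20 counts, where it was high. Without that filter edgeR did not call it (edgeR adjusted p = 0.121). Its estimate and its calls are therefore description and cannot show a difference between the days. Identifier 12, in the next row, had 4, 3, 2, 0, 6, 1, 5 and 0 counts in the Day 20 libraries and 1 count in all Day 18 libraries together. It was removed by the filter on low counts, and without that filter it was not called (edgeR adjusted p = 0.177).

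For the other block identifiers tested between the days, the edgeR test made no call. Identifier 33 had a log2 fold change of 0.83 ± 0.50 (SE), with an edgeR adjusted p of 0.618 and means of 91.4 ± 34.02 CPM at Day 20 and 52.1 ± 29.5 CPM at Day 18. Identifier 25 had one of 0.33 (SE 0.56), identifier 37 one of -0.33 (SE 0.32) and identifier 18 one of -0.62 (SE 0.59). Over the 16 tested, 10 had higher and 6 lower estimates at Day 20, with a median of 0.58, while the median over all identifiers was 0.02. Only identifiers that pass a minimum count enter these numbers, so they do not describe all 37. Identifier 11, with an estimate of 4.33, passed that minimum only through its Day 20 counts, where it was high. Identifiers 19, 20 and 29 (-1.36, -0.93 and -0.69) passed it among the Day 18 libraries alone and not among the Day 20 libraries. So did identifier 32, with a higher estimate of 1.30. The filter thus let in estimates of both signs through the counts of a single day. The split and the median cannot show a direction for the block.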

How the data were processed

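The deposited values are whole-number counts of reads for each Ensembl identifier, in 1 table with a column per library; 0 columns were without a sample. STAR 2.3.4 and RSEM are named in the submitters' processing notes. The genome build, the annotation, the use of strand and any rounding of estimated counts are each not given in the sources used here. Reads shared with nuclear copies of mitochondrial genes, or between overlapping genes of opposite strands, could be split or misassigned. Groups came from the labels. Nothing says whether libraries came from separate embryos, so a p-value reflects the spread among captures, technical spread included, and is too small where captures share an embryo. In 39 pairs of libraries of one group the chi-square statistic per gene was 37.6 to 264, so none was treated as a second deposit.

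CPM is counts per 1000000 counts of the library. The SE of an edgeR log2 fold change was back-calculated, as its absolute value divided by the square root of the quasi-likelihood F statistic. Tests used edgeR 4.0.16 in R 4.3.3 (filterByExpr, TMM, quasi-likelihood, all identifiers, adjusted p under 0.05). There was 1 fit for the 16 Day 18 libraries, 1 for the 8 Day 20 libraries and 1 for these 24 together, weighting groups equally. The test was also run on counts simulated from its own fitted dispersions, which cannot show how well its model suits these captures. DESeq2 1.42.0, limma 3.58.1, other scalings and filters, the replicate block and left-out libraries were alternatives. Wilson intervals and limits from 3 counts cover counting error only. The block's share got no test, being a score over its members. Members, lists and tests were chosen with earlier results of these data known. The rule for named identifiers was to account for all 37 and to give values for the 15 long positions and the 3 highest transfer RNA positions. Identifiers 11, 12, 32 and those interleaved were added after their values were seen. The lists of nuclear mitochondrial genes and lineage markers were not read, since 0 identifiers matched the gene table at hand. Same-numbered epiblast and hypoblast libraries deviated together (r = 0.254, 0.463 and 0.283), which met the rule for pairing, while other groups did not. The reported epiblast against hypoblast values nevertheless come from the fit without pairing. The replicate block spans all Day 18 groups, so it is not a paired test of these groups alone. With it, identifier 4 had a log2 fold change of 0.35 for epiblast against hypoblast, and 0.38 without it.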

Additional observations from a re-analysis of the deposited data

Results flagged for a closer look

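In 36 sets of values by group, 6 held a library far from the rest of its group, where chance alone gives about 1 in 20, or 1.80. Several of the measures share the same counts, so the sets are not separate draws and 6 against 1.80 does not measure an excess. Of the 6, 3 overlapping ones concern exmc library 3, with 33.7% of its counts on the 37 identifiers (11.3% to 14.5% in the other 5 exmc libraries), 32.2% on identifier 4 (10.7% to 13.9%) and 1.45% on identifier 2 (0.414% to 0.622%). In E20_1 library 1, identifier 4 made up 21.6% of the 37-row stretch, against 53.8% to 54.6% in the other 3 libraries. In E20_2 library 4, identifier 24 stood at 1407 per 1000000 counts of the stretch, against 826 to 884. In others library 3, the transfer RNA places other than identifier 24 summed to 17.3 CPM, against 14.4 to 14.8 CPM. The Day 16 library, which enters no comparison, had 84.9 CPM on identifier 24, where 3 counts would be 0.690 CPM.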

How the results depend on the processing

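Of 147 recomputed counts of called block identifiers, 144 were the same. The others concern Day 20 against Day 18, where DESeq2 called 2 (identifiers 11 and 24), limma voom called 2 and the fit without E20_2 called 0. With the replicate number as a replicate block, 0 were called in each of the 5 comparisons that allow it. In those 5 comparisons every edgeR fit called 0 of all identifiers tested, so unchanged counts there say nothing particular to identifiers 1 to 37. Leaving identifier 4 out lowered the block's share of counts to 0.335% in hypoblast, 0.536% in epiblast, 0.905% in exmc, 0.514% in others, 0.413% in E20_1, 0.755% in E20_2 and 1.52% at Day 16. With the 37-row stretch in place of identifiers 1 to 37, the share was 12.1%, 15.01%, 14.6%, 12.4%, 20.0% and 20.9% in hypoblast, epiblast, others, E20_1, E20_2 and Day 16, and in exmc it moved by less than the SD. The stretch, the fits without a group and the scaling to the stretch were chosen after seeing the data. The number of long positions above the transfer RNA positions was 3 with medians and at Day 18 alone, where identifier 33 joined, and 2 at Day 20 alone.

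The tools differed in calls over all identifiers. For Day 20 against Day 18, edgeR called 19, DESeq2 352 and limma voom 377, and edgeR called 38 without exmc library 1 and 42 without exmc library 4. It called 11 with scaling to the stretch, 41 without exmc, 6 without E20_1 and 9 without E20_2. For epiblast against hypoblast, epiblast against exmc, hypoblast against exmc, others and the Day 20 sets, edgeR called 0 and DESeq2 34, 93, 125, 20 and 13, while limma voom called 61 for hypoblast against exmc and 1 for others. Depth limits the low identifiers, since 3 counts are 0.287 to 1.03 CPM in single libraries. The cause of these differences was not tested.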
